A study of Mus musculus with 21 samples.

Results

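The genes described here encode the subunits of the proteasome, the barrel-shaped protease that degrades most ubiquitin-tagged proteins in the cytoplasm and nucleus. They were chosen by symbol, as the lines of the table whose symbol is Psma, Psmb, Psmc or Psmd followed by digits only, together with Psme1, Psme2, Psme3 and Psme4. The rule gave 43 of the 21878 lines, and it used no measured value. They were 8 genes of the outer (alpha) rings of the 20S core, 7 genes of its constitutive inner (beta) rings, 4 genes of inner-ring forms made in immune or thymus cells, 6 ATPases and 3 non-ATPase subunits of the base of the 19S regulatory particle, 8 subunits of its lid, 3 chaperones of its assembly and 4 activators. Of these, 42 passed the filter on low counts, and Psmb11, the thymus form, did not.

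The RNA came from spiral ganglion neurons, the cells that connect the hair cells of the cochlea to the brain, in mice at postnatal day 7. Each library pooled about 50 neurons taken with a micropipette, and the polyadenylated RNA was amplified and sequenced by Smart-seq2. The 21 libraries formed 6 groups, which were DN-mHCN2 apex (4 libraries), DN-mHCN2 base (3), truncated SK3 apex (3), truncated SK3 base (3), control apex (4) and control base (4). All groups carried an adeno-associated virus, so no group was free of infection. DN-mHCN2 libraries came from neurons with a virus for HCN2 mutated at a site, labelled as a dominant-negative form of this hyperpolarization-activated cation channel. Truncated SK3 libraries came from neurons with a virus for a shortened SK3, labelled as a dominant-negative form of this calcium-activated potassium channel, the product of Kcnn3. Control libraries came from neurons with a virus for EGFP, with the genotype labelled WT. Apex and base are the ends of the cochlea that encode low and high sound frequencies. Libraries of a group are labelled biological replicates without naming their animals, so p-values measure the spread between these libraries, which may be partly technical. The strain of the mice, the promoter that drove each insert and the route of the virus are not given in the sources used here.

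In the intact particle, the 20S core is a stack of alpha and beta rings whose catalytic sites face the inner channel and belong to Psmb5, Psmb6 and Psmb7. The 19S particle caps the core, binds ubiquitin chains, removes them and unfolds the substrate with its ring of ATPases. Interferon-gamma induces the alternative catalytic subunits Psmb8, Psmb9 and Psmb10, which replace the constitutive ones in new particles, and the activator pair Psme1 and Psme2, which caps the core in place of the 19S particle. Neurons need proteasomes for protein quality control and for the turnover of synaptic proteins, and when the particle is inhibited the transcription factor Nfe2l1 raises the genes of its subunits.

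Library totals lay between 10411634 and 15138780 counts, and levels are given as CPM, the usual rescaling of counts to a common library size, here after TMM scaling. Summed levels of 15 neuronal markers lay between 12240.5 and 26113 CPM in every library, although Prph was at 0 in 6 of them. Markers of Schwann and satellite glia, 14 genes, summed to 10553 to 46596 CPM, so glial RNA was present in all groups. The 15 macrophage markers summed to 1801 and 1727 CPM in DN-mHCN2 base libraries 2 and 3, to 568 CPM in control apex library 4 and to 305 CPM or less in the other libraries, and Adgre1, a defining macrophage gene, was at 0 in 7 libraries. The 11 supporting cell markers found in the table summed to 10297 CPM in DN-mHCN2 apex library 1, and the 10 fibroblast markers to 3660.3 CPM in DN-mHCN2 base library 1 and 3658 CPM in control base library 3. The log2 CPM of each gene, less its mean over the 21 libraries, was fitted on the log2 of transcript length for 14455 tested genes. The slope, which compares libraries with each other, lay between -0.246 and 0.065 in DN-mHCN2 libraries. It lay between -0.145 and 0.073 in truncated SK3 libraries and between 0.030 and 0.132 in control libraries. Hcn2 had 14.6, 31.7, 122 and 80.7 CPM in DN-mHCN2 apex libraries and 29.7, 21.6 and 34.9 CPM in DN-mHCN2 base libraries, against 38.2, 19.8, 18.8 and 39.4 CPM in control apex and 62.0, 89.8, 9.84 and 85.0 CPM in control base libraries. Kcnn3 stayed at or under 1.94 CPM in truncated SK3 libraries and 1.49 CPM in control libraries. The 2 channel genes therefore did not separate the groups, and whether reads from the viral inserts enter these counts is not given in the sources used here.

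Proteasome genes were abundant and even across the 21 libraries. Their summed level was 8378 ± 279 CPM in DN-mHCN2 apex (SD, n = 4), 8405 ± 792 CPM in DN-mHCN2 base (n = 3), 7216 ± 509 CPM in truncated SK3 apex (n = 3), 8533 ± 719 CPM in truncated SK3 base (n = 3), 7573 ± 436 CPM in control apex (n = 4) and 8010 ± 774 CPM in control base (n = 4). Single libraries lay between 6764 and 9306 CPM. A mean of at least 100 CPM was reached by 31 of the 42 tested members. The median coefficient of variation over the 21 libraries was 14.7% for the tested members and 37.9% for all 14968 tested genes. At matched level the difference was smaller, with 13.9% for members of at least 100 CPM and 19.98% for the 2287 tested genes of at least 100 CPM. Psmc4, an ATPase of the 19S base, varied least at 10.1%, and Psma8 varied most at 115% from few counts.

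**Figure D1:**
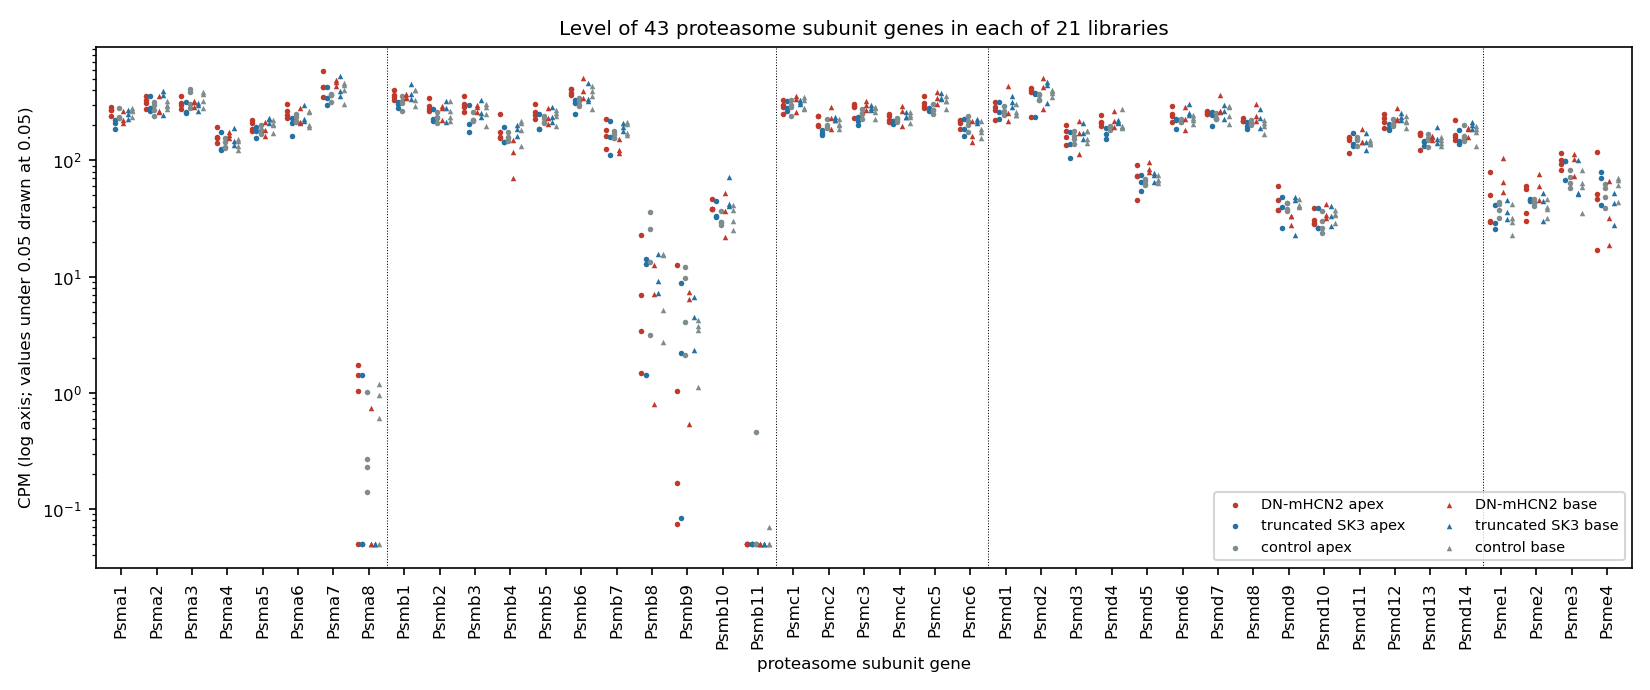
Level in CPM (log axis) of each of the 43 genes in each of the 21 libraries, 1 point per library, with red for DN-mHCN2, blue for truncated SK3, grey for control, circles for apex and triangles for base. Core and 19S genes lie in a narrow band, with Psma7 at a mean of 409.8 CPM, while Psma8, Psmb8, Psmb9 and Psmb11 lie far below it and spread widely.

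Levels of different genes were compared per kilobase of the longest transcript, as means over the group means. The genes named for a role are its highest and lowest by CPM, and the extremes per kilobase can be other genes. Among the alpha subunits, Psma7 had 270.5 CPM per kilobase (409.8 CPM) and Psma8, the form of the testis, had 0.249 CPM per kilobase (0.478 CPM). Psma8 is at chromosome 18 14706151-14762301 on the plus strand (GRCm38, GENCODE M21), and 9 of the 21 libraries had no count of it, with at most 23 counts in the others. Among the constitutive beta subunits, Psmb6 had 372 CPM per kilobase (359.8 CPM) and Psmb4 had 139 CPM per kilobase (164 CPM). In the 19S base, the ATPases Psmc5 and Psmc6, highest and lowest by CPM, had 224 and 88.6 CPM per kilobase, the scaffold subunit Psmd2 had 124 and the ubiquitin receptor Psmd4 had 96.8 CPM per kilobase. In the lid, Psmd7 had 163 and Psmd11 had 49.5 CPM per kilobase. Genes whose products leave the finished particle or bind it only at times were lower. Among the 19S chaperones Psmd5 had 16.2 and Psmd10 had 22.7 CPM per kilobase, and among the activators Psme3 had 30.01 and Psme1 had 21.9. Per kilobase the activators ran from 8.09 CPM for Psme4 to 47.8 CPM for Psme2, which was close to Psmd11. Psmb11 was at 0 in 19 libraries and had at most 6 counts, which left it out of every test.

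The constitutive catalytic subunits lay far above their immune forms. Per kilobase, Psmb6 had 372 CPM and its immune form Psmb9 had 1.53 CPM. Psmb5 had 263 CPM per kilobase, against 5.65 CPM per kilobase for Psmb8. The gap was smallest for Psmb7, with 59.3 CPM per kilobase, against 29.2 CPM per kilobase for its immune form Psmb10. The size of these gaps depends on the longest transcript, 2849 bases for Psmb7 and 1311 bases for Psmb10. In CPM without that division, Psmb6 had 360 and Psmb9 4.42, Psmb5 236 and Psmb8 10.8, and Psmb7 169 and Psmb10 38.2. Reads of Psmb5 may be shared, since 57.1% of the 50-base stretches of its transcript occur also in another gene (a processed pseudogene), and the counter used is not given in the sources used here. The other members with more than 20% of such stretches were Psma3 (22.02%), Psma4 (25.6%), Psma5 (54.5%), Psmd2 (25.2%) and Psme2 (59.3%).

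The upstream sequence of 2 catalytic subunits is shown because both hold, close to the start of the gene, the letters TGACNNNGC of the antioxidant response element, the motif that Nfe2l1 and Nfe2l2 bind with small Maf partners. Sequences are from RefSeq on GRCm38.p6, printed 5′ to 3′ on the strand of the gene with the motif in capitals, and bases that GENCODE M21 places in an exon were left out. The Psmb5 stretch is chr14:54618023-54618245 on the minus strand with the motif starting 47 bases before the RefSeq start, and the Psmb6 stretch is chr11:70525107-70525356 on the plus strand with the motif starting 9 bases before it.
Psmb5: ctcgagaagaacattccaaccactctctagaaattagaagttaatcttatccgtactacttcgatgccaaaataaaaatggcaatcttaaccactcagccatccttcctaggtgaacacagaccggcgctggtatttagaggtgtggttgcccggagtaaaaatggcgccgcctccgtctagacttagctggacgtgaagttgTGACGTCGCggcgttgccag
Psmb6: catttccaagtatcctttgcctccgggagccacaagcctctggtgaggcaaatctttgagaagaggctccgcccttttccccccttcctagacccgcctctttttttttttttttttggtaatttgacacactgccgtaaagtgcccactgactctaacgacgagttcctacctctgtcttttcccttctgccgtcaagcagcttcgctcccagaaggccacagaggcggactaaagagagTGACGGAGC
Of the 43 members, 36 had a window of 250 bases in the RefSeq table, and 5 of these genes (13.9%) held TGACNNNGC on either strand. Of all 32851 windows, 10.2% held it. A member was counted if any of its windows held the motif, while the share over all is of single windows, so these shares differ in unit. Those 5 were Psmb5, Psmb6, Psmc6, Psmd9 and Psmd12. TTCNNNGAA, the letters of the gamma-interferon activation site, was found for Psmb8 alone (2.78% of member genes, against 7.02% of all windows). CCAAT was found for 14 member genes (38.9%, against 33.8% of all windows). These matches describe letters in the windows, and no binding was measured.

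Summed levels of the core and of the 19S particle were compared between libraries and not with each other, since the transcripts differ in length. The 14 core genes other than Psma8 and the immune forms summed to 3938 ± 469 CPM in DN-mHCN2 apex, 3689 ± 346 CPM in DN-mHCN2 base, 3260 ± 494 CPM in truncated SK3 apex, 3858 ± 561 CPM in truncated SK3 base, 3423 ± 262 CPM in control apex and 3730 ± 500 CPM in control base. The 17 subunits of the 19S particle summed to 3992 ± 275 CPM in DN-mHCN2 apex, 4243 ± 736 CPM in DN-mHCN2 base, 3544 ± 77.0 CPM in truncated SK3 apex, 4274 ± 111 CPM in truncated SK3 base, 3755 ± 208 CPM in control apex and 3897 ± 252 CPM in control base. The log2 ratio of the core sum to the 19S sum ran from -0.52 in DN-mHCN2 base library 3 to 0.34 in DN-mHCN2 apex library 3, and both extremes were DN-mHCN2 libraries. Median transcript length was 1220 bases for the core genes and 1983 bases for the 19S genes, and DN-mHCN2 base library 3 also had the lowest slope on transcript length, -0.246. The part of transcript length in the ratio was not tested.

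**Figure D2:**
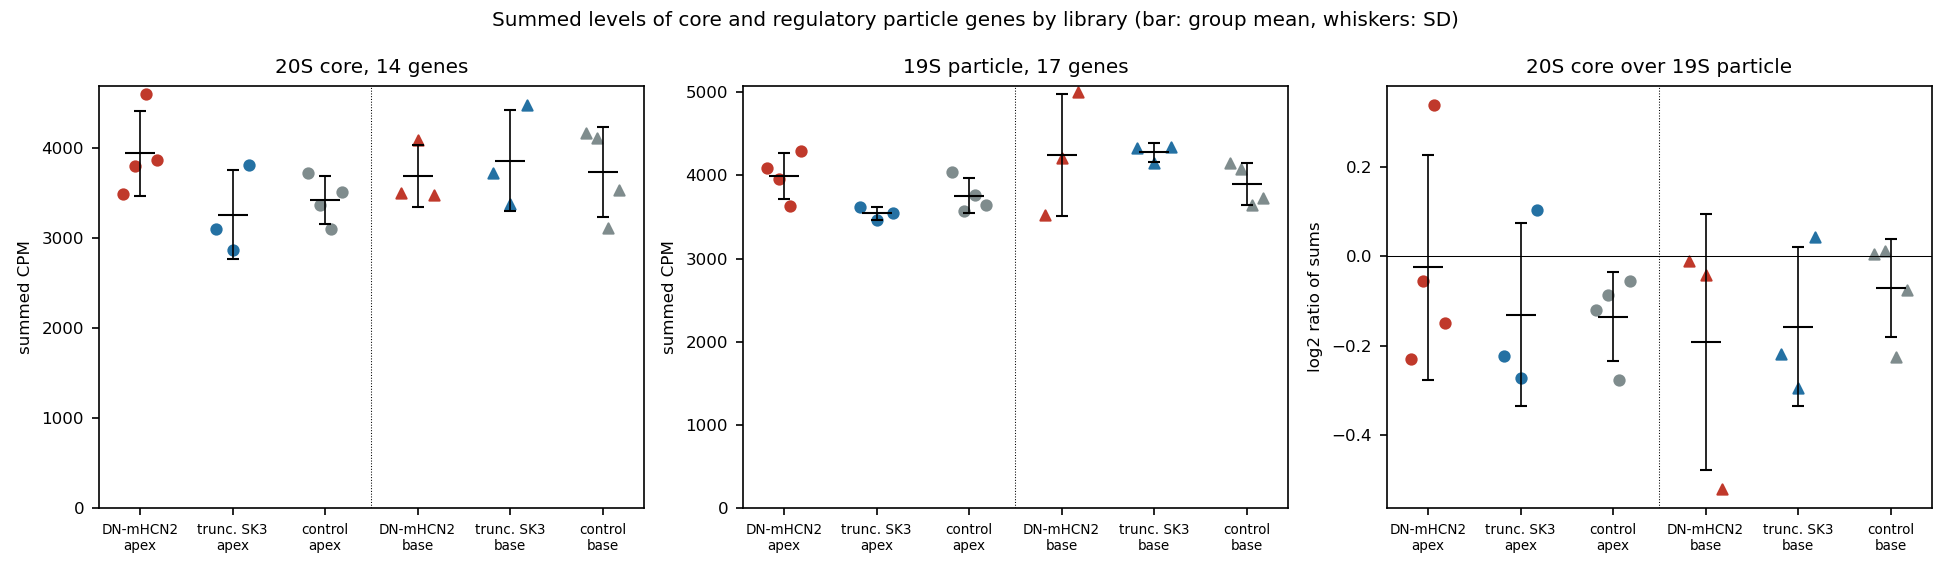
Summed CPM of the 14 core genes (left) and the 17 genes of the 19S particle (middle), and the log2 ratio of the sums (right), 1 point per library, with bars for the group mean and whiskers for the SD. Sums overlap between the constructs and their controls except for the 19S sum in truncated SK3 base, whose 3 libraries lie between 4146.35 and 4344 CPM, against 3640.1 to 4145.58 CPM in control base, and the ratios reach -0.52 and 0.34 in DN-mHCN2 libraries.

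The first comparison asked whether the mutated HCN2 changed proteasome gene expression. Over both cochlear regions, Psme1 rose and no other member passed the test. Psme1 encodes the alpha subunit of the interferon-inducible activator and lies at chromosome 14 55578123-55581529 on the plus strand. It had 79.0, 50.1, 29.8 and 29.6 CPM in DN-mHCN2 apex libraries and 65.0, 104 and 53.3 CPM in DN-mHCN2 base libraries, against 42.0, 44.0, 32.2 and 37.2 CPM in control apex and 42.2, 22.8, 32.0 and 29.3 CPM in control base libraries. The 3 DN-mHCN2 base libraries were all above the 4 control base libraries, while in the apex 2 libraries were above and 2 below all controls. The log2 fold change over both regions was 0.75 (standard error 0.217, adjusted p = 0.0436, edgeR quasi-likelihood test with Benjamini-Hochberg adjustment over all tested genes). In the base it was 1.23 (standard error 0.317, edgeR adjusted p = 0.0477) and in the apex 0.28 (standard error 0.295, edgeR adjusted p = 0.796). The regional effects were not shown to differ, with a difference of 0.95 (standard error 0.433, edgeR adjusted p = 0.709).

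That was 1 of 42 tested members (2.38%), against 6.05% of all tested genes called over both regions, with 2.45% called higher. In the base it was again 1 of 42, against 2.14% of all genes and 0.842% called higher, and in the apex none was called, against 0.2% of all genes. At an unadjusted p under 0.05 there were 7 members over both regions, 2 in the apex and 6 in the base (16.7%, 4.76% and 14.3%). The shares of all tested genes were higher in each comparison, at 21.97%, 11.9% and 18.5%. DESeq2 and limma-voom called 2 and 1 members over both regions, 0 and 0 in the apex and 2 and 1 in the base. The DESeq2 and limma-voom counts are not set against those of all tested genes here. The call of Psme1 rested on a narrow margin. Without the macrophage-rich DN-mHCN2 base libraries 2 and 3, its log2 fold change was 0.67 over both regions and 1.07 in the base. That fit keeps 1 library in DN-mHCN2 base, so it cannot tell whether the call depends on the macrophage-rich libraries. Leaving out any of control apex 1 to 4, control base 2, 3 or 4, DN-mHCN2 apex 1 or 2 or DN-mHCN2 base 2 ended the call over both regions, with edgeR adjusted p-values between 0.0604 and 0.133. In the base the call ended without any 1 of the 4 control base libraries or DN-mHCN2 base 2, with adjusted p-values between 0.0511 and 0.186. Without DN-mHCN2 apex 1 and base 1, the libraries richest in supporting cell and fibroblast markers, it was 0.61 over both regions (edgeR adjusted p = 0.0921), and with the GC and length trend taken out 0.58 (edgeR adjusted p = 0.0927) and 0.98 in the base (edgeR adjusted p = 0.0790).

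Psme1 overlaps the end of Emc9 on the opposite strand, and reads of the pair cannot be told apart if strand was not used in counting. Emc9 itself had a log2 fold change of 0.08 over both regions (edgeR adjusted p = 0.781). The macrophage marker sum was 32.0, 1801 and 1727 CPM in DN-mHCN2 base libraries 1, 2 and 3, where Psme1 had 65.0, 104 and 53.3 CPM. DN-mHCN2 base library 1, with a sum near that of the controls (22.7 to 55.3 CPM in control base), had more Psme1 than any control library, and it also had the highest fibroblast marker sum, 3660.3 CPM, next to 3658 CPM in control base library 3. DN-mHCN2 apex library 1, with 79.0 CPM the highest of the apical libraries in Psme1, had the highest supporting cell marker sum, 10297 CPM. Red blood cell genes summed to 776, 2496 and 2317 CPM in DN-mHCN2 base, against 649, 79.8, 1091 and 7.18 CPM in control base. DN-mHCN2 base library 1 thus lay within the control range, and libraries 2 and 3 lay above it. The 7 oligodendrocyte markers averaged 25.2 CPM in DN-mHCN2 base and 818 CPM in control base, where library 2 had 27.2 CPM. Schwann and satellite glia markers averaged 13259 CPM in DN-mHCN2 base and 23345.5 CPM in control base, with overlap between libraries. The part of red blood cells, oligodendrocytes and glia in the Psme1 difference was not tested. In libraries of about 50 cells, a change in the number of cells of a type and a change of RNA per cell cannot be told apart.

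The other activators did not pass the test, though 3 of the 4 had positive log2 fold changes over both regions with an unadjusted p under 0.05. An unadjusted p under 0.05, in either direction, was found for 16.7% of the tested members and 21.97% of all tested genes. Psme3 encodes the nuclear activator that acts without ubiquitin and lies at chromosome 11 101316213-101323537 on the plus strand. It had 115, 82.1, 93.4 and 99.9 CPM in DN-mHCN2 apex and 103, 73.1 and 114 CPM in DN-mHCN2 base libraries, against 64.4, 71.5, 57.3 and 82.6 CPM in control apex and 58.9, 63.5, 35.5 and 82.2 CPM in control base libraries. In each region 1 DN-mHCN2 library lay within the control range and the others lay above it. The log2 fold change was 0.60 (standard error 0.181, edgeR adjusted p = 0.0532), and DESeq2 gave an adjusted p of 0.0186. By region it was 0.50 in the apex (standard error 0.246, edgeR adjusted p = 0.433) and 0.69 in the base (standard error 0.264, edgeR adjusted p = 0.162).

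Psme2, the partner of Psme1, lies at chromosome 14 55587441-55591113 on the minus strand, a few kilobases from it. Its levels were 59.8, 56.5, 30.1 and 35.3 CPM in DN-mHCN2 apex and 75.7, 59.7 and 45.9 CPM in DN-mHCN2 base libraries, against 46.3, 42.7, 40.4 and 43.9 CPM in control apex and 39.6, 46.1, 32.2 and 37.9 CPM in control base libraries. The base groups overlapped by a narrow margin, 45.9 CPM in the lowest DN-mHCN2 base library against 46.1 CPM in the highest control base library. The log2 fold change was 0.35 over both regions (standard error 0.167, edgeR adjusted p = 0.222) and 0.63 in the base (standard error 0.244, edgeR adjusted p = 0.163). Its transcript shares 59.3% of its 50-base stretches with other genes, mainly Psme2b, whose log2 fold change was 0.42 (edgeR adjusted p = 0.370), so its counts are uncertain. Psme4, the large activator that caps the core alone, had the widest range of the 4 activators, with 16.9, 50.8, 119 and 46.8 CPM in DN-mHCN2 apex and 66.0, 32.2 and 18.7 CPM in DN-mHCN2 base libraries, against 58.1, 48.2, 39.2 and 62.1 CPM in control apex and 70.8, 68.2, 44.0 and 60.9 CPM in control base libraries. Both the lowest and the highest Psme4 value were in DN-mHCN2 apex libraries. Its log2 fold change was -0.24 over both regions (standard error 0.315, edgeR adjusted p = 0.711), and without DN-mHCN2 base libraries 2 and 3 it was 0.15.

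**Figure D3:**
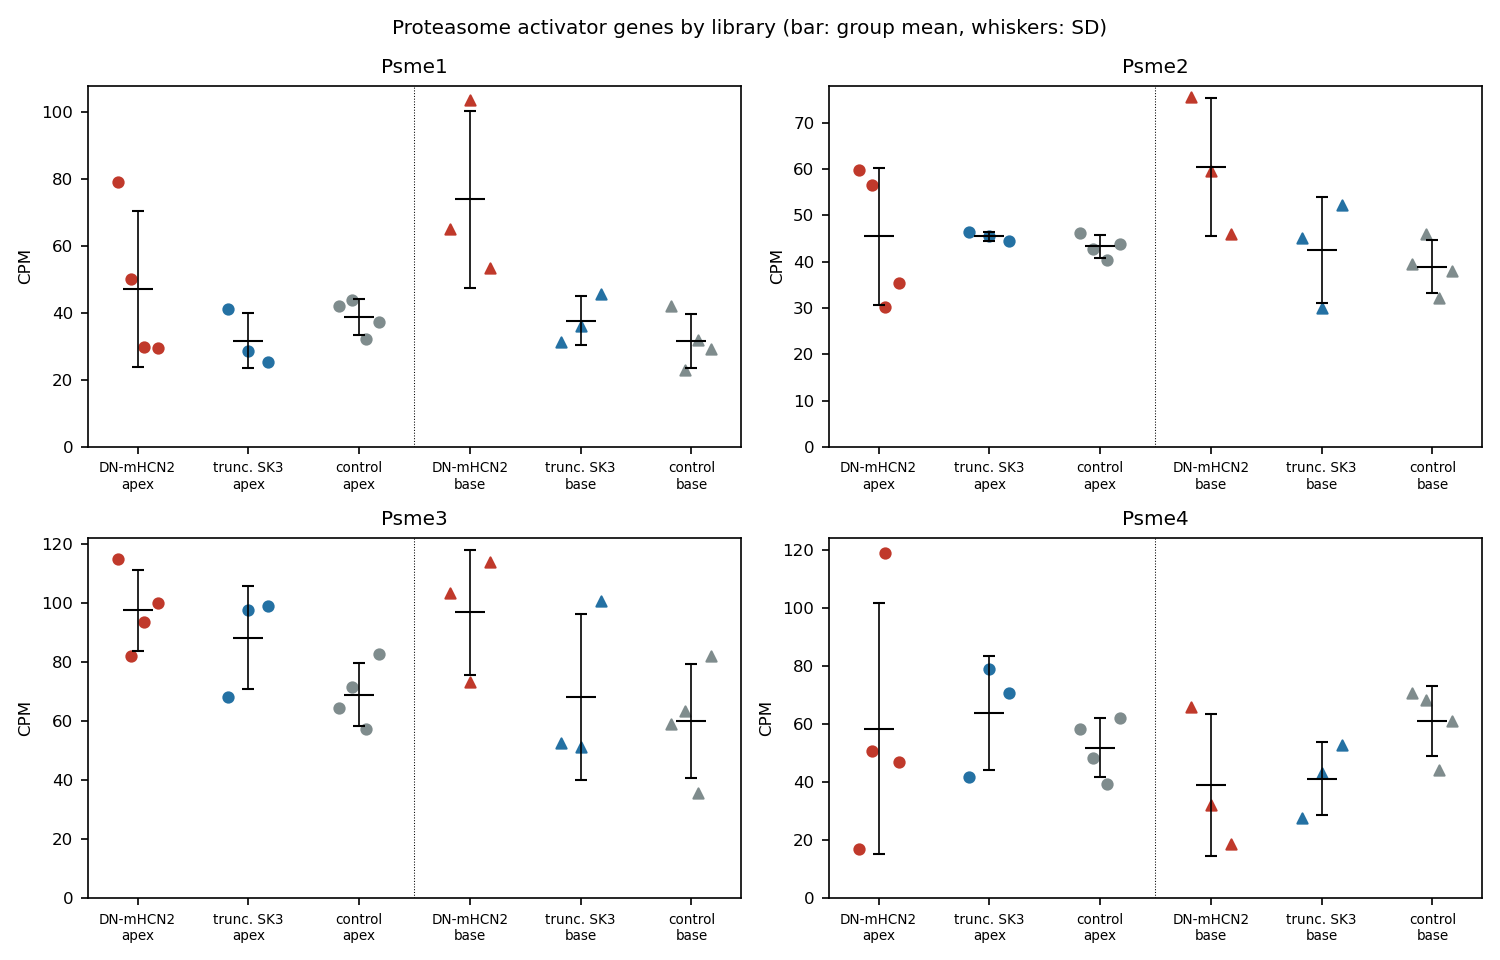
CPM of the 4 activator genes in each library, with bars for the group mean and whiskers for the SD, apex groups left of the dotted line and base groups right of it. Psme1 averages 74.0 CPM in DN-mHCN2 base and 31.6 CPM in control base, Psme3 lies above most controls in both DN-mHCN2 groups, and Psme4 spreads from 16.9 to 119 CPM within DN-mHCN2 apex.

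In the 20S core, the constitutive beta subunits gave several of the larger differences of DN-mHCN2 libraries within a region, and none passed the test. Psmb4, a non-catalytic subunit of the beta ring, had 118, 149 and 70.7 CPM in DN-mHCN2 base libraries, against 210.1, 218, 133 and 184 CPM in control base libraries. DN-mHCN2 base library 3 was lowest of all 21, and the groups overlapped. The log2 fold change in the base was -0.73 (standard error 0.227, edgeR adjusted p = 0.0870), and DESeq2 gave an adjusted p of 0.0427 and limma-voom 0.101. Without DN-mHCN2 base library 3 it was -0.47 (edgeR adjusted p = 0.293). In the apex Psmb4 had 159, 155, 251 and 174 CPM in DN-mHCN2 libraries and 175, 156, 146 and 159.7 CPM in control libraries. The difference of the regional effects was -0.94 (standard error 0.306, edgeR adjusted p = 0.517). Both regions together gave a log2 fold change of -0.26 (standard error 0.153, edgeR adjusted p = 0.343).

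Psmb7, which carries the trypsin-like site, had 115, 152 and 122 CPM in DN-mHCN2 base libraries, against 213, 204, 166 and 172 CPM in control base libraries, with no overlap. Its log2 fold change was -0.54 (standard error 0.204, edgeR adjusted p = 0.154). Psmb3, another non-catalytic subunit of the beta ring, had 261, 286, 357 and 305 CPM in DN-mHCN2 apex, against 258, 222, 219 and 223 CPM in control apex, again with no overlap and with a log2 fold change of 0.39 (standard error 0.169, edgeR adjusted p = 0.373). Psmb6, with the caspase-like site, had 367, 407, 414 and 377 CPM in DN-mHCN2 apex, against 343, 296, 298 and 322 CPM in control apex. Psmb5, with the chymotrypsin-like site, had 226, 259, 307 and 247 CPM in DN-mHCN2 apex and 205, 282 and 232 CPM in DN-mHCN2 base, against 242, 213, 210.4 and 233 CPM in control apex and 256, 269, 198 and 239 CPM in control base, and the groups overlapped in both regions. The alpha subunit Psma3 gave one of the lowest apical values, with 275, 297, 356 and 313 CPM in DN-mHCN2 apex, against 386, 303, 283 and 409.5 CPM in control apex. Its log2 fold change there was -0.16 (standard error 0.142, edgeR adjusted p = 0.745). The testis form Psma8 had the largest fitted values, 1.33 in the apex (standard error 1.79, edgeR adjusted p = 0.859) and -1.47 in the base (standard error 2.01, edgeR adjusted p = 0.758), from levels of at most 1.72 CPM.

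In the apex, all DN-mHCN2 libraries lay above all control libraries for 5 members, Psmb2, Psmb3, Psmb6, Psmb10 and Psmd4, which is 11.9% of the tested members, against 4.59% of all tested genes, and below them for no member, against 4.88% of all genes. In the base they lay above for Psma4, Psmd5 and Psme1 (7.14% of members, against 8.02% of all genes) and below for Psmb7 and Psmd9 (4.76% of members, against 9.03% of all genes). Psmd5, a chaperone of the 19S base, had 80.0, 83.8 and 97.4 CPM in DN-mHCN2 base, against 67.0, 67.2, 74.7 and 63.8 CPM in control base. Psmd9, another such chaperone, had 27.5, 33.5 and 33.0 CPM in DN-mHCN2 base, against 46.6, 40.2, 41.1 and 39.9 CPM in control base. The alpha subunit Psma4 had 167, 157 and 173 CPM in DN-mHCN2 base, against 153, 146, 122 and 134 CPM in control base.

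Most members had small positive log2 fold changes in DN-mHCN2, and Psme1 alone was called. Over both regions, 32 of 42 members had a log2 fold change above 0, and the median was 0.10, against a median of 0.03 for all tested genes. All 8 lid subunits were positive, between 0.05 and 0.21, and none was called, while 6 were positive with the GC and length trend taken out and 5 without DN-mHCN2 base 2 and 3. In the apex 37 of 42 were positive with a median of 0.12 (0.01 for all genes), where all 7 constitutive beta subunits were above 0, and in the base 29 of 42 with a median of 0.09 (0.03 for all genes). Among all tested genes of at least 100 CPM, 53.6% were positive over both regions, 55.9% in the apex and 46.9% in the base. The counts of members moved with the libraries and with the correction for GC content and transcript length. With the trend on GC content and transcript length taken out of each library, 26 members were positive over both regions and 12 in the base, with medians of 0.02 and -0.09, while in the apex 38 were, with a median of 0.14. In the base 23 were positive without DN-mHCN2 base 3 (median 0.025), 25 without control base 3 (median 0.043) or control base 4 (median 0.058) and 31 without DN-mHCN2 base 1 (median 0.18). Without the macrophage-rich libraries, which leaves DN-mHCN2 base 1 alone in its group, 24 were positive over both regions and 17 in the base. The medians were 0.02 and -0.10. In the apex 31 were positive without DN-mHCN2 apex 1 and base 1, in which supporting cell or fibroblast genes were high.

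**Figure D4:**
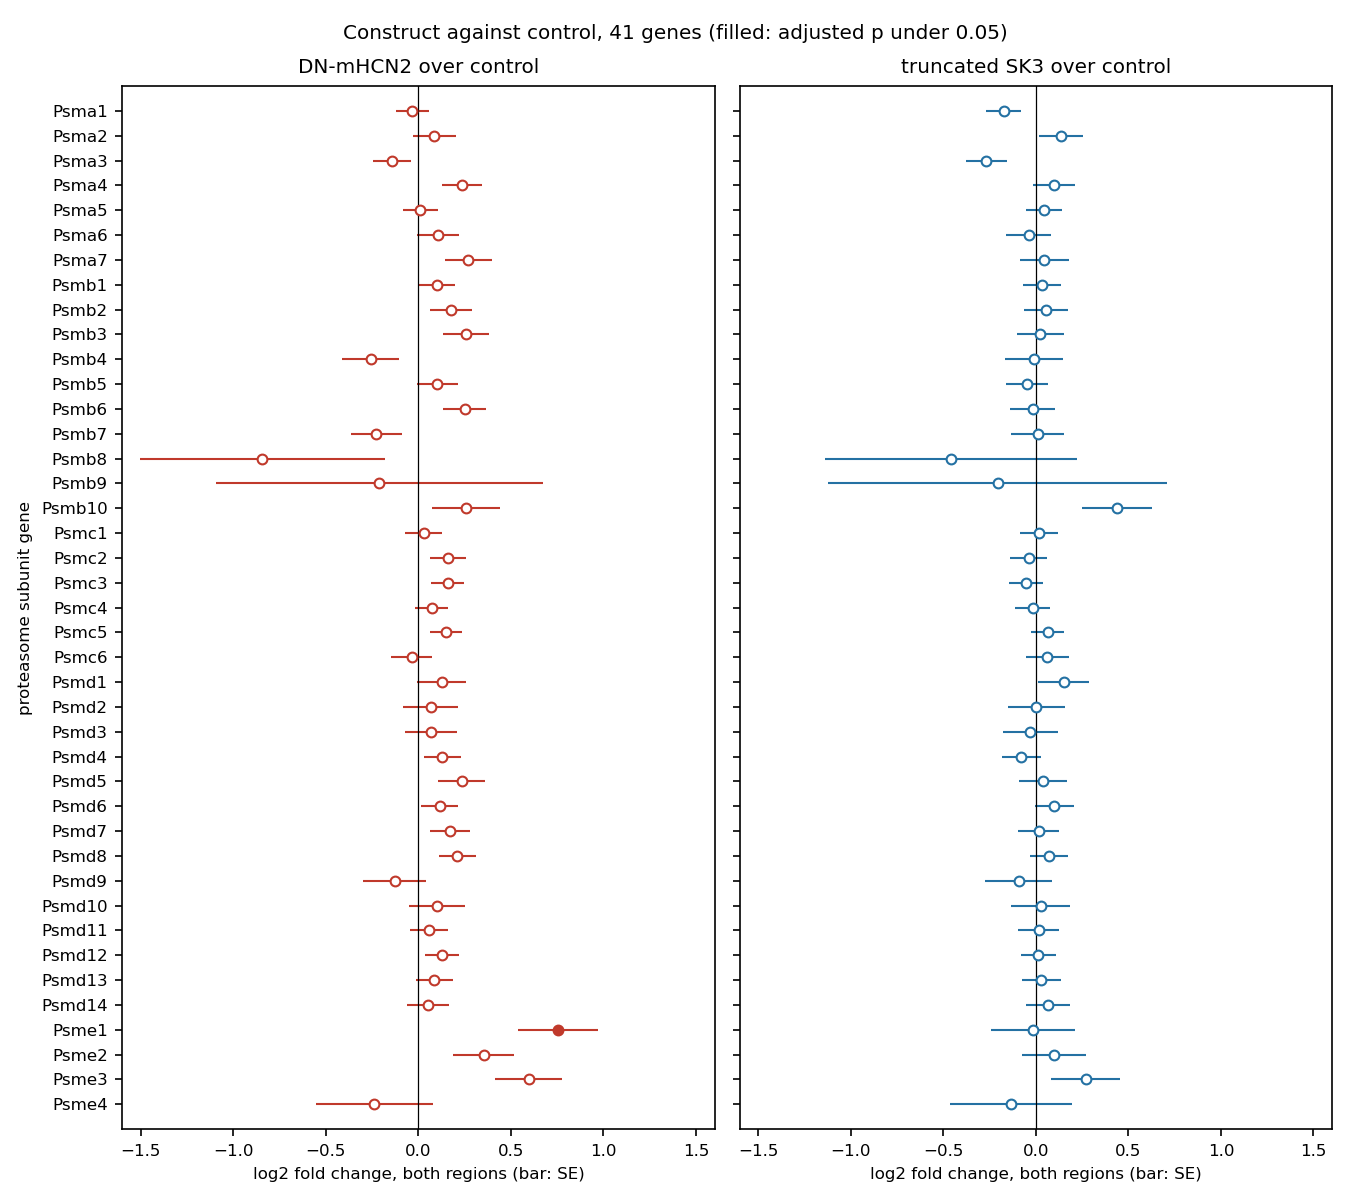
Log2 fold change over both regions for each tested member except Psma8, DN-mHCN2 over control (left) and truncated SK3 over control (right), with bars for the SE and filled points for an adjusted p under 0.05. Psme1 at 0.75 in DN-mHCN2 is the single filled point, the 8 lid genes Psmd3 to Psmd14 sit just right of 0 in DN-mHCN2 (6 of them with the GC and length trend taken out, and 5 without DN-mHCN2 base 2 and 3), and most members of truncated SK3 sit at 0.

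The second comparison asked the same of the truncated SK3. No member was called over both regions, in the apex or in the base, against 0.735%, 0.254% and 0.147% of all tested genes. At an unadjusted p under 0.05 there were 2, 0 and 2 members (4.76%, 0% and 4.76%), against 10.3%, 8.51% and 5.51% of all tested genes. DESeq2 and limma-voom called no member in any of the 3. Psmb10, the immune form of Psmb7, at chromosome 8 105935735-105938444 on the minus strand, had the highest value over both regions. It had 45.1, 32.5 and 33.5 CPM in truncated SK3 apex and 42.2, 40.4 and 71.4 CPM in truncated SK3 base libraries, against 36.8, 27.9, 29.8 and 29.7 CPM in control apex and 41.1, 37.0, 30.0 and 25.0 CPM in control base libraries. The apical groups overlapped, as did the basal ones, and truncated SK3 base library 3 was highest of all 21. The log2 fold change was 0.44 over both regions (standard error 0.190, edgeR adjusted p = 0.415), 0.25 in the apex and 0.63 in the base (standard error 0.269, edgeR adjusted p = 0.838).

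Psma3, an alpha subunit, had 256, 262 and 317 CPM in truncated SK3 apex and 299, 264 and 313 CPM in truncated SK3 base libraries, against 386, 303, 283 and 409.5 CPM in control apex and 384, 374, 283 and 322 CPM in control base libraries. The groups overlapped in both regions. Its log2 fold change was -0.27 over both regions (standard error 0.109, edgeR adjusted p = 0.376), -0.31 in the apex and -0.22 in the base. Psmd1, the large scaffold of the 19S base, had a log2 fold change of 0.15 over both regions (standard error 0.136, edgeR adjusted p = 0.781) and 0.28 in the base, where it had 355, 319 and 289 CPM in truncated SK3, against 262, 247, 304 and 245 CPM in control, and the groups overlapped. Psma8 had no count in the 3 truncated SK3 base libraries, which allows up to 0.0922 CPM (3 counts over the group). Its mean in control base was 0.693 CPM, 7.51 times that limit, with libraries from 0 to 1.20 CPM. Control base library 4 also had no count, so the groups overlapped and no fold difference is claimed. For Psma8 the edgeR adjusted p was 0.855. That limit covers counting error only, since the reads carry no molecular identifiers.

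No activator passed the test in truncated SK3 libraries. Psme1 had 41.1, 28.7 and 25.4 CPM in truncated SK3 apex and 31.2, 36.2 and 45.8 CPM in truncated SK3 base libraries, within or close to the control range, with a log2 fold change of -0.02 over both regions (standard error 0.226, edgeR adjusted p = 0.996). Psme3 had 68.1, 97.7 and 98.8 CPM in truncated SK3 apex and 52.7, 51.2 and 101 CPM in truncated SK3 base, with 0.27 over both regions (standard error 0.187, edgeR adjusted p = 0.677) and 0.36 in the apex. Psme4 had a log2 fold change of 0.30 in the apex (edgeR adjusted p = 0.936) and -0.57 in the base (edgeR adjusted p = 1.000). In the apex every truncated SK3 library lay below every control library for Psma1 and Psmc2 (4.76% of members, against 6.77% of all genes), and above for no member (5.02% of all genes). Psma1 had 210.3, 186 and 220.2 CPM in truncated SK3 apex, against 284, 231, 233 and 237 CPM in control apex, and the ATPase Psmc2 had 171, 166 and 183 CPM, against 229, 190.0, 199.5 and 193 CPM. In the base every truncated SK3 library lay above every control library for the lid subunit Psmd6 alone (2.38% of members, against 3.91% of all genes) and below for none (4.55% of all genes). Psmd6 had 253, 243.5 and 306 CPM in truncated SK3 base, against 230.0, 242.9, 206 and 224 CPM in control base.

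Direction counts differed between the regions for truncated SK3. In the apex 13 of 42 members had a log2 fold change above 0 (median -0.05, against 0.02 for all genes), with none of the 8 lid subunits above 0 (1 with RLE, DESeq2 or only the groups compared, and 2 with the GC and length trend taken out). In the base 35 of 42 were positive (median 0.11, against 0.01 for all genes), with all 8 lid subunits and all 6 ATPases above 0 (7 and 5 with limma-voom, and 7 and 4 with the GC and length trend taken out). Among all tested genes of at least 100 CPM, 44.5% were positive in the apex and 62.0% in the base. The test of the regional difference called no member, against 0% of all genes (0 members at an unadjusted p under 0.05, and 0 called by DESeq2 and by limma-voom). Without truncated SK3 base library 3 the basal count was 22 (median 0.014), without control base 3 it was 25 (median 0.038) and without control base 4 it was 31 (median 0.054), with the trend on GC content and length taken out it was 27, and with limma-voom 28. Without truncated SK3 apex library 2 the apical count was 20 (median -0.0049), without truncated SK3 apex library 3 it was 10 (median -0.14), without control apex 2, 3 or 4 it was 8, 7 and 7 (medians -0.09 each), and with limma-voom 8 (median -0.11). Over both regions 25 were positive, and 15 without control base library 4, 16 without truncated SK3 base library 3, 19 with limma-voom and 20 with the trend taken out.

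Base and apex of control cochleae were compared for the tonotopic axis, along which spiral ganglion neurons differ in the sound frequency they encode. No member was called, against 0% of all tested genes, and 0 were called by DESeq2 and by limma-voom. An unadjusted p under 0.05 was found for 0 members, against 4.82% of all tested genes. The summed level was 8010 ± 774 CPM in control base and 7573 ± 436 CPM in control apex (SD, n = 4 each). In base 31 of 42 members were higher than in apex, and so were 55.5% of all tested genes of at least 100 CPM. The median log2 fold change of the members was 0.08, against 0.00 for all genes. That median was 0.019 without control apex 2 or without control base 2, 0.025 without control base 1, 0.044 without control apex 3 and 0.041 without control apex 4, with 25 to 28 members higher in base. All 7 constitutive beta subunits were positive. The difference of the DN-mHCN2 effect between base and apex called no member, against 0.00668% of all genes, and neither DESeq2 nor limma-voom called one. An unadjusted p under 0.05 was found for 3 members, Psmb4, Psmb7 and Psme1 (7.14%, against 6.85% of all genes).

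Set against each other over both regions, DN-mHCN2 and truncated SK3 differed in no member by edgeR, against 0.655% of all tested genes. Of the 42 members, 30 were higher in DN-mHCN2, with a median of 0.09, against 0.00 for all genes. Without DN-mHCN2 base 2 and 3 there were 25, with a median of 0.051, and with the GC and length trend taken out 28, with a median of 0.052, while without DN-mHCN2 base 1 there were 35, with a median of 0.16. Psme1 averaged 60.6 CPM in DN-mHCN2 and 34.7 CPM in truncated SK3, a log2 fold change of 0.77 (standard error 0.236, edgeR adjusted p = 0.123), and DESeq2 called it alone. At an unadjusted p under 0.05 there were 3 members, Psme1, Psmb6 and Psmc3, a count that is not set against that of all tested genes here. Limma-voom called no member. Both constructs were compared with the same control libraries, so their separate differences from control share that part.

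The immune catalytic subunits were low and varied widely between libraries of every group. Psmb8, the immune form of Psmb5, lies at chromosome 17 34197721-34201454 on the plus strand. It had 3.4, 22.9, 1.49 and 6.95 CPM in DN-mHCN2 apex, 0.803, 7.04 and 12.5 CPM in DN-mHCN2 base, 14.1, 12.7 and 1.43 CPM in truncated SK3 apex, 15.7, 7.18 and 9.09 CPM in truncated SK3 base, 25.5, 35.6, 3.12 and 13.3 CPM in control apex and 15.7, 5.16, 15.5 and 2.74 CPM in control base libraries. Psmb9, the immune form of Psmb6, lies at chromosome 17 34181987-34187764 on the minus strand, head to head with the peptide transporter gene Tap1, which it overlaps. It had 1.04, 12.5, 0.166 and 0.0747 CPM in DN-mHCN2 apex, 0.536, 6.39 and 7.43 CPM in DN-mHCN2 base, 2.2, 8.76 and 0.0842 CPM in truncated SK3 apex, 4.49, 6.62 and 2.32 CPM in truncated SK3 base, 12.1, 9.8, 2.1 and 4.03 CPM in control apex and 4.27, 1.13, 3.73 and 3.45 CPM in control base libraries. For both genes the groups overlapped, and libraries of 1 group differed by more than the group means did.

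Psmb8 had a log2 fold change of -0.84 in DN-mHCN2 over both regions (standard error 0.661, edgeR adjusted p = 0.495) and -1.16 in the apex (edgeR adjusted p = 0.682), and -0.46 in truncated SK3 over both regions (edgeR adjusted p = 0.900) and -1.04 in the apex (edgeR adjusted p = 0.859). Psmb9 had -1.02 in DN-mHCN2 apex (standard error 1.20, edgeR adjusted p = 0.827), -0.92 in truncated SK3 apex (edgeR adjusted p = 0.924) and 0.51 in truncated SK3 base (edgeR adjusted p = 1.000). None of these passed the test. Psmb10 was steadier, with a coefficient of variation of 28.2% over the libraries, against 81.0% for Psmb8 and 87.0% for Psmb9.

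The libraries with much Psmb8 and Psmb9 were also those with much B2m, the light chain of MHC class I molecules. B2m had 139, 567, 127 and 154 CPM in DN-mHCN2 apex, 157, 265 and 205 CPM in DN-mHCN2 base, 343, 370.4 and 163 CPM in truncated SK3 apex, 347, 198 and 236 CPM in truncated SK3 base, 479, 364, 199 and 489 CPM in control apex and 367, 179, 320.2 and 283 CPM in control base libraries. The set of 10 relations, those of 5 interferon-inducible members with B2m and with the macrophage marker sum, was chosen after the data were seen and computed on log2(CPM + 1) over the 21 libraries with 100000 permutations. Psmb8 and B2m gave a Pearson r of 0.81 (permutation p = 1e-05, the smallest possible, 0.0001 after Benjamini-Hochberg adjustment over the 10 relations) and a Spearman rho of 0.82 (permutation p = 2e-05, adjusted 0.0002). With group means taken out r was 0.79 (adjusted permutation p = 0.00905), and without DN-mHCN2 apex libraries 2 and 3, the farthest in B2m, r was 0.77. Psmb9 and B2m gave an r of 0.79 and a rho of 0.79 (permutation p = 4e-05 each, adjusted 0.0002 each), 0.81 within groups (adjusted permutation p = 0.00905) and 0.72 without the same 2 libraries.

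For the other inducible members no relation with B2m passed 0.05. With B2m, r was -0.07 for Psmb10, 0.03 for Psme1 and 0.07 for Psme2 (rho -0.12, 0.11 and 0.09, adjusted permutation p-values of r 0.852, 0.907 and 0.852). With group means taken out r was 0.097, 0.37 and 0.27 (adjusted permutation p-values 0.614, 0.465 and 0.591). Their difference from the relations of Psmb8 and Psmb9 with B2m was not tested. With the macrophage marker sum, r was 0.27 for Psmb8 and 0.52 for Psmb9 (adjusted permutation p-values 0.471 and 0.0525). Spearman rho was 0.42 and 0.55 (adjusted permutation p-values 0.114 and 0.0373), so for Psmb9 rho passed 0.05 and r did not. Within groups r was 0.40 and 0.48 (adjusted permutation p-values 0.414 and 0.233), and without DN-mHCN2 base libraries 2 and 3 it was 0.35 and 0.50. The difference of these relations from those with B2m was not tested. Psme1 and the macrophage sum gave an r of 0.48 and a rho of 0.46 (adjusted permutation p-values 0.0667 and 0.0905), which was 0.13 without DN-mHCN2 base libraries 2 and 3, so it rested on them. Psmb10 gave 0.14 and Psme2 0.10 (rho 0.11 and 0.10, adjusted permutation p-values of r 0.852 each).

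**Figure D5:**
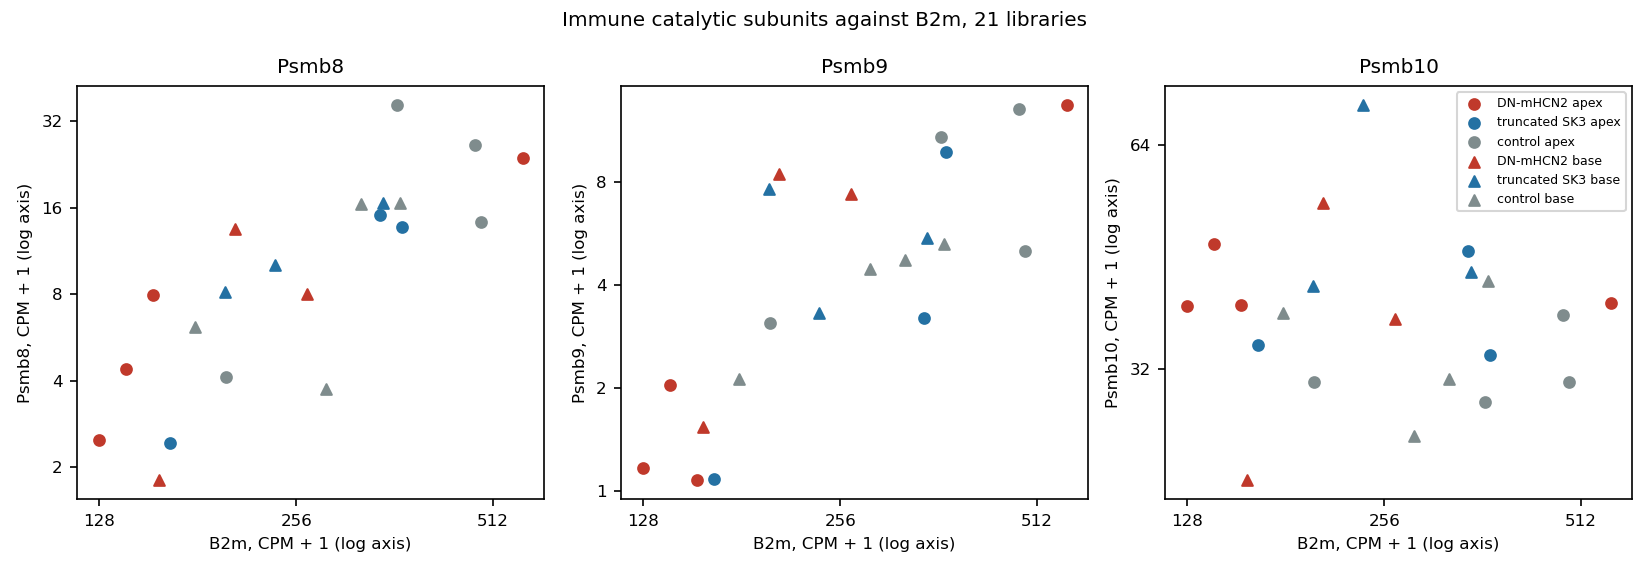
Psmb8, Psmb9 and Psmb10 against B2m, each as CPM + 1 on log axes, 1 point per library, with the colours and shapes of the groups given in the legend. Psmb8 and Psmb9 climb with B2m across all groups (r = 0.81 and 0.79), while Psmb10 shows no trend (r = -0.07).

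Genes that assemble, regulate or feed the proteasome were counted from 4 further lists. Of the assembly and associated factors, 15 of 18 were in the table and tested, and 2 fell in DN-mHCN2 over both regions with none rising, against 3.61% of all tested genes called lower. Ubr4, an E3 ligase that binds the proteasome, had 76.9, 96.4, 143 and 118 CPM in DN-mHCN2 apex and 84.6, 71.4 and 80.3 CPM in DN-mHCN2 base libraries, against 172, 163, 166 and 124 CPM in control apex and 136, 135, 97.9 and 149.6 CPM in control base libraries. All 3 basal DN-mHCN2 libraries were below the basal controls, as for 9.03% of all tested genes, and 3 of the 4 apical ones were below the apical controls. Its log2 fold change was -0.62 (standard error 0.152, edgeR adjusted p = 0.0196). Ube3c, an E3 ligase that extends ubiquitin chains on bound substrates, had 39.4, 44.6, 75.3 and 79.7 CPM in DN-mHCN2 apex and 50.4, 43.001 and 44.9 CPM in DN-mHCN2 base, against 89.8, 81.7, 58.3 and 79.1 CPM in control apex and 99.4, 74.1, 75.3 and 78.2 CPM in control base. Its groups overlapped in the apex, and in the base every DN-mHCN2 library was below every control, as for 9.03% of all tested genes. Its log2 fold change was -0.60 (standard error 0.158, edgeR adjusted p = 0.0300).

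Of the Nfe2l1 pathway, 14 of 15 were tested, and 2 fell in DN-mHCN2 over both regions with none rising. Of all tested genes, 3.61% were called lower and 2.45% higher. Nfe2l1 itself had a log2 fold change of -0.19 (standard error 0.135, edgeR adjusted p = 0.446). Ogt, which adds N-acetylglucosamine to nuclear and cytoplasmic proteins, had 68.3, 83.1, 142 and 130.5 CPM in DN-mHCN2 apex and 135, 45.6 and 65.1 CPM in DN-mHCN2 base libraries, against 196, 197, 179.9 and 182 CPM in control apex and 130.0, 171, 170.4 and 160.2 CPM in control base libraries. Every apical DN-mHCN2 library was below the apical controls, as for 4.88% of all tested genes, and in the base 2 of 3 were below the basal controls. Its log2 fold change was -0.89 (standard error 0.200, edgeR adjusted p = 0.0122). Hcfc1, a chromatin cofactor that Ogt processes, had 48.3, 51.4, 67.8 and 55.0 CPM in DN-mHCN2 apex and 40.6, 47.4 and 51.6 CPM in DN-mHCN2 base, against 99.9, 101, 61.8 and 72.2 CPM in control apex and 57.5, 76.7, 71.0 and 76.9 CPM in control base. In the base every DN-mHCN2 library was below every control, as for 9.03% of all tested genes. Its log2 fold change was -0.59 (standard error 0.143, edgeR adjusted p = 0.0188).

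These 4 genes have long transcripts, of 15928 bases for Ubr4, 8262 for Hcfc1, 5384 for Ogt and 5048 for Ube3c, and 6 of the 7 DN-mHCN2 libraries had a lower slope of level on length than any control library. With the trend on GC content and length taken out, Ogt kept its call at -0.65 (edgeR adjusted p = 0.0431), while Ubr4 was at -0.32 (0.250), Ube3c at -0.39 (0.221) and Hcfc1 at -0.25 (0.464). Without DN-mHCN2 base libraries 2 and 3 the log2 fold changes were -0.56 for Ubr4, -0.52 for Ube3c, -0.52 for Ogt and -0.68 for Hcfc1. That fit keeps 1 library in DN-mHCN2 base, so it cannot tell whether the calls depend on those libraries. Leaving out single libraries changed no call of Ogt or Hcfc1, though Hcfc1 lost it without DN-mHCN2 apex 1 and base 1 together, at -0.52 (edgeR adjusted p = 0.0640). The call of Ubr4 was lost without DN-mHCN2 base 2 (edgeR adjusted p = 0.0540), and that of Ube3c without any of control apex 1, 2 or 4, control base 1, DN-mHCN2 apex 1 or 2 or DN-mHCN2 base 2 or 3 (edgeR adjusted p-values 0.0522 to 0.0713). With the replicate block Ube3c was at -0.59 (edgeR adjusted p = 0.0565).

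Of the ubiquitin genes, E1 enzymes and shuttle factors, 14 of 16 were tested and none was called against control. Of the antigen presentation and interferon-gamma response genes, all 14 were tested and none was called in any comparison. No other gene of the 4 lists was called in the comparisons of a construct with control.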

How the data were processed

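Counts per gene symbol in 21 libraries were used as deposited by the authors, as whole-number counts that were not normalized, per the file headers and the values. Per the submitters' processing notes, the tools were Trimmomatic, HISAT2 and DESeq2 (no versions) and the build was GRCm38, also given as mm10. The counter, its annotation and its use of strand are not given in the sources used here. A date replaces the symbol of 27 lines, and 3555 lines are at 0 in every library.

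Genes kept by filterByExpr (14968) were scaled by TMM. The model, a robust quasi-likelihood fit (edgeR 4.0.16, R 4.3.3), held 1 mean for each of the groups and every library. A comparison over both regions is the mean of the regional effects. P-values were adjusted over all tested genes by the Benjamini-Hochberg method, with a false discovery rate of 0.05, in each of 10 comparisons. The standard error is the size of the log2 fold change divided by the square root of F. The code was tested on simulated data. GENCODE M21 (GRCm38) held 96.6% of the tested symbols, and a share of 50-base stretches over 20% was taken to make counts uncertain.

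Members with values are those called, the 3 largest rises and 3 largest falls in each of the 6 comparisons of a construct with control, the catalytic pairs, the activators, the highest and lowest member of each role, and the member left out by the filter. Up to 4 called genes of each further list were added, and 1 result that this rule names is not reported here. Genes with groups that do not overlap, and those at an unadjusted p under 0.05, were named after their values were seen. The members, lists and tests were chosen with earlier results of these data known.

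Alternatives were RLE size factors, no filter, DESeq2 1.42.0, a filter of 10 CPM in 3 libraries, voom with quality weights in limma 3.58.1 (limma-voom), a replicate block, a fit of only the groups compared, each library left out, the 2 macrophage-rich libraries left out (DN-mHCN2 base 2 and 3), the 2 libraries rich in supporting cell or fibroblast markers left out (DN-mHCN2 apex 1 and base 1), and a spline trend (5 degrees of freedom) on GC content and transcript length taken out. Those for genes of the further lists were added after seeing the data. Leaving out DN-mHCN2 base 2 and 3 keeps 1 library in that group. Python 3.11.15, numpy 2.4.6, scipy 1.17.1 and matplotlib 3.10.9 gave the permutations and figures.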

Additional observations from a re-analysis of the deposited data

Results flagged for a closer look

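In 9 of 126 combinations of a member with a group of 4 libraries, 1 library stood far from the other 3, with a gap to the nearest beyond the limit of Dixon's test, and chance gives about 1 in 20. Control apex library 1 was high for 3 genes. These were Psma1 with 284 CPM (nearest other library 237 CPM), Psmb3 with 258 CPM (nearest 223 CPM) and Psma8 with 1.01 CPM (nearest 0.271 CPM). DN-mHCN2 apex library 2 had 12.5 CPM of Psmb9, the nearest other library 1.04 CPM, and it was also the library with the most B2m, 567 CPM. DN-mHCN2 apex library 1, the one richest in supporting cell markers, had 46.0 CPM of Psmb10 (nearest 38.2 CPM) and 231 CPM of Psmd8 (nearest 219 CPM). DN-mHCN2 apex library 3 was low for Psmd2 with 234 CPM (nearest 390.2 CPM) and for Psmd13 with 123 CPM (nearest 165 CPM), and it had the highest ratio of core to 19S genes, 0.34 on the log2 scale. Control base library 2 had 277 CPM of Psmd4 (nearest 196 CPM).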

How the results depend on the processing

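Of 784 values of 41 gene and comparison pairs under the alternatives, 725 kept direction and side of the threshold, 45 lost the call, 9 gained it and 5 reversed. The reversed ones were Psme4 without the macrophage-rich libraries (0.15 over both regions and 0.14 in the base, for DN-mHCN2), Psma3 in DN-mHCN2 apex with the GC and length trend taken out (0.029), Psmb8 in truncated SK3 over both regions with limma-voom (0.058) and Psmb9 in truncated SK3 base with the replicate block (-0.35), none of them called. The number of members called for DN-mHCN2 over both regions, 1 by the reported test, was 2 with RLE, with 10 CPM in 3 libraries and with DESeq2. It was 0 with the replicate block, without the libraries rich in supporting cell or fibroblast markers and with the trend taken out. With single libraries left out it was 0 to 2. With only the groups compared it stayed 1, but that gene was Psme3. In DN-mHCN2 base the number was 2 with DESeq2 and 0 to 1 with single libraries left out. It was 0 with no filter, with the replicate block and with only the groups compared. With the trend taken out the called gene there was Psmb4. The fit without the macrophage-rich libraries keeps 1 library in DN-mHCN2 base, so its number of calls is not given. Between the constructs the number was 1 with DESeq2. In the other 7 comparisons it was 0 throughout. The cause of these changes was not tested. Replicate numbers did not pair the libraries, with correlations of deviations of same-numbered libraries of different groups from -0.148 up, a median of -0.017 and 6 of 48 pairs over 0.1, so the block results rest on a shared number only. No member with a log2 fold change near 0.1 was called by the reported test.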
